A study of Mus musculus with 6 samples.

Results

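Chemokines are small secreted proteins that guide leukocytes, and the genes described here are those that encode chemokines and their receptors. They were taken by symbol, as every gene whose name starts with Ccl, Cxcl, Xcl, Cx3cl, Ccr, Cxcr, Xcr, Cx3cr or Ackr followed by a digit. The rule found 62 of the 24015 genes listed, 39 ligands and 23 receptors. Genes of the same system that carry other names, such as Pf4, Ppbp and Ccrl2, fall outside it and are given separately.

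RNA was sequenced from sorted stem and progenitor cells of an acute myeloid leukaemia that the fusion oncogene MLL-AF9 had produced in mice, taken once disease was fully developed. The leukaemia of all 6 libraries was made from lineage-negative, cKit-positive bone marrow progenitors of NIKERT2 mice. These mice come from a cross of Rosa-loxp-STOP-loxp-NIK with Rosa-CreERT2 mice, so the cells of both groups carry a silenced transgene for the kinase NIK and a tamoxifen-dependent Cre recombinase, both at the Rosa locus. The 3 LSPC libraries come from untreated mice and the 3 LSPCT libraries from tamoxifen-treated mice, in which Cre can remove the stop. The sources used here do not give age, dose, sort gate or interval after tamoxifen, and no group received tamoxifen without the transgene. Effects of tamoxifen, of Cre and of NIK therefore cannot be told apart. The labels do not tell whether each replicate is another mouse, and p-values therefore speak only of how these samples varied, and that variation may be technical.

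Library totals ran from 19999071 to 26773176 counts. Map3k14, the gene of NIK, stood at 26.5, 24.2 and 28.8 CPM (counts scaled to library size, the unit of all levels here) in untreated replicates 1 to 3 and at 129.8, 190.5 and 159.4 CPM in tamoxifen replicates 1 to 3. Kit (117 to 137 CPM untreated, 126 to 194 CPM with tamoxifen), Meis1 (88.3 to 112 and 89.6 to 108 CPM) and Myb (764 to 806 and 674 to 805 CPM) were present in every library. They belong to a list of 10 leukaemia stem and progenitor markers, all tested, of which 4 fell and none rose. Those that fell were the granule genes Mpo and Elane, Mef2c (150 to 187 and 26.8 to 40.9 CPM) and Cebpa (251 to 291 and 186 to 235 CPM). Tamoxifen replicate 1 stood apart. Of 12729 genes tested, 6.50% differed in it by more than 2-fold from the mean of the other libraries of its group, against 0.746% to 2.66% in the other 5 libraries. Of the 27 tested chemokine genes, 7 did so in tamoxifen replicate 1 (Ccl3, Ccl4, Cxcl2, Cxcl9, Cxcl10, Ccr3 and Cx3cr1) and 1 to 5 in each of the others. In bulk RNA, fewer cells of a type and less RNA per cell cannot be told apart.

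Chemokine ligands are grouped by the spacing of their first cysteines into CC, CXC, XC and CX3C classes. Their conventional receptors couple to inhibitory G proteins and drive migration, whereas atypical receptors bind chemokines without that signal and remove or transport them. In bone marrow, CXCL12 made by stromal cells holds CXCR4-bearing stem cells and leukaemia cells in place, and CXCR2 and CCR2 serve the release of neutrophils and monocytes. Many inflammatory ligand genes are textbook targets of NF-kB and of interferon, and NIK drives the noncanonical arm of NF-kB.

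RefSeq promoters of build GRCm38.p6 (the counts were made on mm9) were matched by symbol for 46 of the 62 genes and cover 250 bases before to 50 after the start. They were searched on both strands for the kB consensus of NF-kB, for the interferon element GAAANNGAAA and for the STAT element TTCNNNGAA. The promoters of Cxcl10, which rose, of Ccr3, which rose, of Ccl9, which fell, and of Cxcl2, which did not pass, are printed. All hold a kB match, and they were picked after their results were seen. Capitals mark the matches. They lie at chr5:92348840-92349139, minus strand (Cxcl10), chr9:124021721-124022020, plus strand (Ccr3), chr11:83578587-83578886, minus strand (Ccl9) and chr5:90903649-90903948, plus strand (Cxcl2).
Cxcl10: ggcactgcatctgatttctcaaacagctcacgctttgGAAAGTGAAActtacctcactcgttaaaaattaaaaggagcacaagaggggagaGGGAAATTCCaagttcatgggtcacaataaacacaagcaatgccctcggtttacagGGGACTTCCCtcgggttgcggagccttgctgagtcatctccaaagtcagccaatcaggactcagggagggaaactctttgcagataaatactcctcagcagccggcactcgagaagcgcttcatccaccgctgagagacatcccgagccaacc
Ccr3: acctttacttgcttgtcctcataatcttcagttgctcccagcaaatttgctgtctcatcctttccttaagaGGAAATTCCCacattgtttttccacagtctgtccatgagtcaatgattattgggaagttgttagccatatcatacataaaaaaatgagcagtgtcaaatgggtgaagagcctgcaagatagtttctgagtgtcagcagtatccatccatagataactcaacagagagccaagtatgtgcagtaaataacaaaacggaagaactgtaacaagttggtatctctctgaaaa
Ccl9: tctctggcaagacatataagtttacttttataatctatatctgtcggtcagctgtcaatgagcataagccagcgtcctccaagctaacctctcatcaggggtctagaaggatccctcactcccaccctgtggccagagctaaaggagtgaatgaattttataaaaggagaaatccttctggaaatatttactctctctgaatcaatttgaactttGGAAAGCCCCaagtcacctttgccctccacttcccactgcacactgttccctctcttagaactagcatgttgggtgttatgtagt
Cxcl2: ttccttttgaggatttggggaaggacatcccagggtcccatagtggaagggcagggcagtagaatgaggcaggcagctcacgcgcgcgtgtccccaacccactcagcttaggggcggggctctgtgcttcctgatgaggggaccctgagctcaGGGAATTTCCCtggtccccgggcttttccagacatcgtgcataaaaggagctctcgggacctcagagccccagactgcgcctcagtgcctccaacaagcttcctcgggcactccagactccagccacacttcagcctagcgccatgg
The Cxcl10 promoter holds an interferon element, GAAAGTGAAA, whose first base lies 213 bases before the start, and kB matches GGGAAATTCC and GGGACTTCCC at 159 and 103 bases before it. In the Ccr3 promoter the kB match reads GGAAATTCCC on this strand, 179 bases before the start, and in the Ccl9 promoter GGAAAGCCCC, 35 bases before it. The capitals in Cxcl2 are overlapping matches, GGGAATTTCC and GGAATTTCCC, at 97 and 96 bases, and the same letters stand in Cxcl1 at 71 and 70 bases and in Cxcl3 at 73 and 72 bases. Of the 46 genes with a promoter entry, 10 held a kB match, 3 the interferon element and 4 the STAT element. Counted in the same way over the 27025 genes with an entry, 5.14% held the kB consensus, 3.99% the interferon element and 9.55% the STAT element. Over the 32851 promoters themselves the shares were 4.51%, 3.44% and 8.30%. Among the 9 genes that rose, 5 had an entry and 2 of these, Cxcl10 and Ccr3, a kB match. These are matches of letters, not measured binding sites.

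Of the 62 genes, 12 had no count in any library and 23 had too few to be tested, which left 27 tested genes, 13 ligands and 14 receptors. Among these, 9 rose and 2 fell with tamoxifen (edgeR quasi-likelihood test, adjusted p under 0.05 over all genes). Over all 12729 genes tested, 17.2% passed in either direction, 8.96% rising and 8.24% falling. The median log2 fold change was 0.43 for tested ligands and 0.81 for tested receptors, against -0.0025 for all genes tested. Library values did not overlap between the groups for 16 of the 27, 11 higher and 5 lower with tamoxifen, where 37.7% of all genes tested did not overlap (18.1% higher, 19.6% lower). These counts are a description, since a gene nearly silent in untreated cells could enter the test only by being high with tamoxifen. That was so for 10 genes, which reached the filter level of 0.455 CPM in all 3 tamoxifen libraries but not in all untreated ones, and 7 of the 9 genes that rose are among them. Of the 10, Cxcl16, Ackr1, Ccr3, Ccr10 and Cxcr6 reached it in no untreated library, and Ccl5, Cx3cl1, Cxcl9, Ccr7 and Cxcr5 in 1 or 2. Of the 13 genes that reached it in all 6 libraries, 2 rose (Cxcl10 and Ccr9), 2 fell (Ccl9 and Ccr1) and 9 did not pass.

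**Figure D1:**
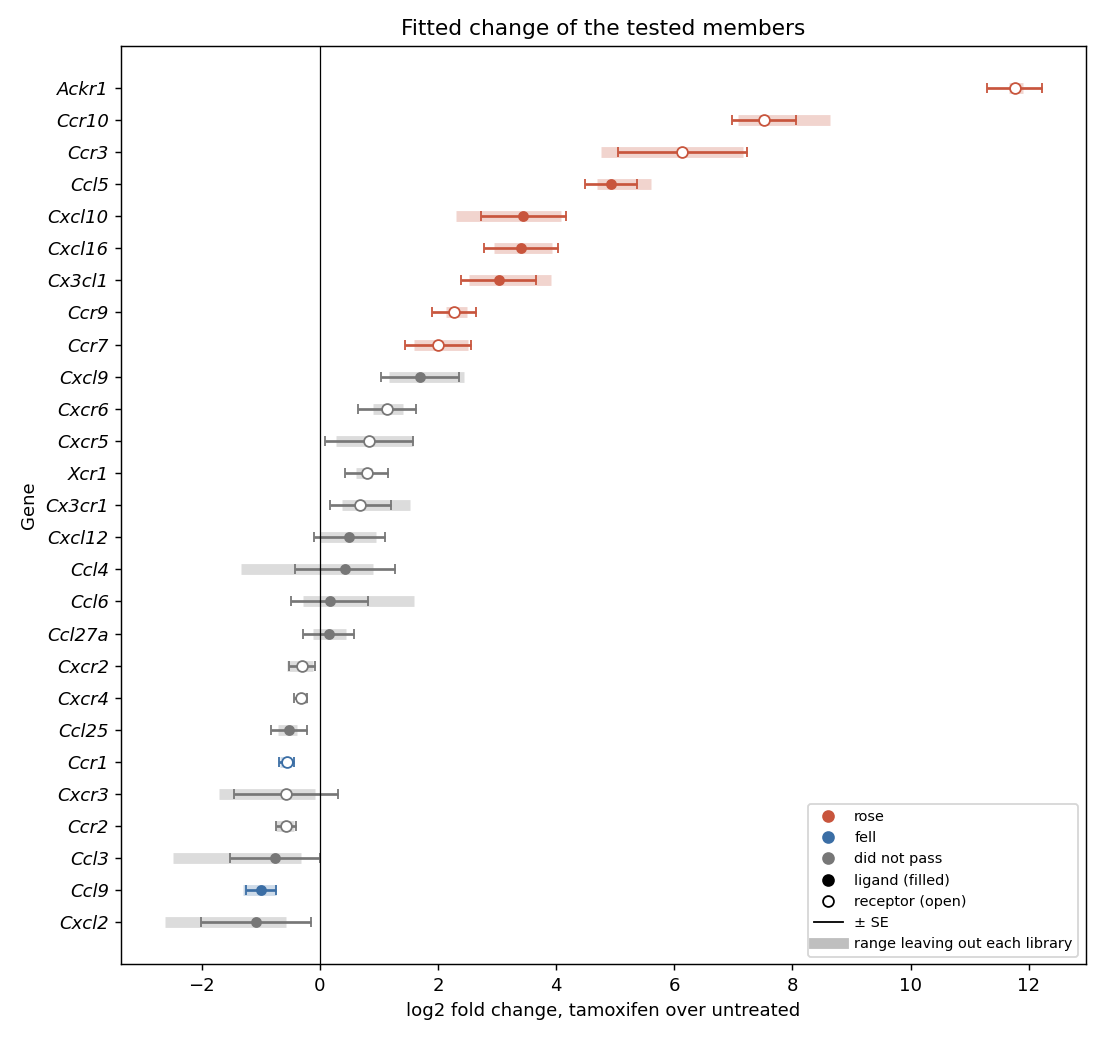
Fitted log2 fold change of the 27 tested genes, tamoxifen over untreated, on the x axis and genes on the y axis. Points are edgeR estimates with bars of ± SE, filled for ligands and open for receptors, and pale bands give the range when each library is left out. Rises reach 11.76 (Ackr1), which is fitted against no untreated count and is not a bound, and the falls are -0.996 (Ccl9) and -0.56 (Ccr1).

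Among the inflammatory CC ligands, Ccl5 rose and Ccl9 fell, although their genes are next to each other. Ccl5 (RANTES) attracts T cells, monocytes and eosinophils through CCR1, CCR3 and other receptors. It stood at 0.199, 0.212 and 0.557 CPM in untreated replicates 1 to 3 and at 13.3, 7.89 and 9.60 CPM in tamoxifen replicates 1 to 3. All tamoxifen libraries lay far above all untreated ones, with a log2 fold change of 4.93 (SE 0.44, edgeR adjusted p = 0.000310), or 30.4-fold. Ccl9, a myeloid ligand of CCR1, stood at 141, 120 and 147 CPM untreated and at 42.2, 68.3 and 94.1 CPM with tamoxifen. The groups did not overlap and the fitted change was -0.996 (SE 0.25, edgeR adjusted p = 0.0305). This call was lost without untreated replicate 1, 2 or 3 or without tamoxifen replicate 2 (edgeR adjusted p 0.0578 to 0.101), with log2 values of -1.08 to -0.93.

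Ccl9 took the largest share of ligand reads in every library. It made up 79.5%, 80.5% and 71.9% of all ligand CPM in the untreated libraries and 28.2%, 58.7% and 63.9% with tamoxifen. Summed over the 39 ligands, the level was 178, 149 and 204 CPM untreated and 149, 116 and 147 CPM with tamoxifen, so the sums of the groups overlapped. Sums of reads weight long transcripts more than short ones.

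Ccl6, Ccl3 and Ccl4, the other tested inflammatory CC ligands, did not pass, and their libraries disagreed within a group. Ccl6, a further ligand of CCR1, was at 7.65, 4.32 and 35.6 CPM in the untreated libraries and at 18.0, 17.9 and 17.8 CPM with tamoxifen. Untreated replicate 3 was the highest library and the other untreated libraries the lowest, so the log2 difference of 0.17 (edgeR adjusted p = 0.888) averages unlike values. Without untreated replicate 3, Ccl6 passed as higher (log2 1.59, edgeR adjusted p = 0.00868). Ccl3 (MIP-1 alpha), a ligand of CCR1, was at 17.04, 13.7 and 8.05 CPM untreated and at 18.4, 2.13 and 2.48 CPM with tamoxifen. Tamoxifen replicate 1 held the highest value of all and the other tamoxifen libraries the lowest (log2 -0.76, edgeR adjusted p = 0.548). Leaving it out, Ccl3 passed as lower (log2 -2.48, edgeR adjusted p = 0.00163). Ccl4 (MIP-1 beta), the neighbour of Ccl3, was also highest in tamoxifen replicate 1, at 2.098 CPM against 0.186 to 0.894 CPM in the other 5 libraries. Its difference of 0.43 (edgeR adjusted p = 0.773) turned to -1.33 without that library (edgeR adjusted p = 0.149).

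The interferon-induced CXC ligands attract T and NK cells through CXCR3, and of them Cxcl10 rose. Cxcl10 (IP-10) stood at 1.19, 1.14 and 3.04 CPM untreated and at 41.6, 9.79 and 8.18 CPM with tamoxifen. Each tamoxifen library was above each untreated one, and replicate 1 was 4.63 times the mean of the other tamoxifen libraries. The log2 fold change was 3.45 (SE 0.72, edgeR adjusted p = 0.0145) and 2.30 without tamoxifen replicate 1, where it still passed. Cxcl10 missed the threshold without untreated replicate 1 or 2 (edgeR adjusted p = 0.0683 and 0.0588) and with limma voom (adjusted p = 0.0637). In RefSeq order Art3 lies between Cxcl9 and Cxcl10 and overlaps Cxcl10, and it did not pass (log2 -0.18, edgeR adjusted p = 0.899). Cxcl9 behaved differently from Cxcl10 across libraries. It was at 0.596, 0.424 and 1.52 CPM untreated and at 0.949, 2.88 and 4.51 CPM with tamoxifen, and tamoxifen replicate 1 was the lowest of its group (log2 1.69, edgeR adjusted p = 0.119). Without tamoxifen replicate 1 it passed (log2 2.09, edgeR adjusted p = 0.0228). Cxcl11, the third ligand of CXCR3, had 2, 0 and 2 counts untreated and 13, 0 and 8 counts with tamoxifen, too few to test. Their receptor gene Cxcr3 stayed under 1 CPM in every library, between 0.0464 and 0.635 CPM (log2 -0.57, edgeR adjusted p = 0.707).

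The ligands that are made as membrane-bound proteins, Cx3cl1 and Cxcl16, both rose from low levels. Cx3cl1 (fractalkine), which tethers cells through CX3CR1, was at 0.248, 0.0424 and 0.482 CPM untreated and at 2.40, 1.62 and 2.52 CPM with tamoxifen. The groups were well separated (log2 3.03, SE 0.64, edgeR adjusted p = 0.0152), and the call was lost without untreated replicate 1 or tamoxifen replicate 3 (edgeR adjusted p = 0.0734 and 0.0550). In RefSeq order Cx3cl1 lies between Ccl22 and Ccl17, which had 2 and 4 counts over the untreated libraries and 15 and 8 over the tamoxifen libraries. Cxcl16, the ligand of CXCR6 and a scavenger receptor for oxidised lipoprotein, was at 0.248, 0.0847 and 0.111 CPM untreated and at 2.45, 0.835 and 1.46 CPM with tamoxifen (log2 3.41, SE 0.62, edgeR adjusted p = 0.00848). All tamoxifen libraries exceeded all untreated ones. Its exons share 20.5% of their bases with Zmynd15 on the opposite strand in GENCODE M21, and Zmynd15 had at most 0.899 CPM in any library.

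Their receptors did not pass. Cx3cr1, a receptor gene of monocytes and macrophages, was at 10.8, 13.004 and 39.5 CPM untreated and at 18.5, 36.5 and 47.3 CPM with tamoxifen. Untreated replicate 3 lay among the tamoxifen libraries (log2 0.69, edgeR adjusted p = 0.404), and without it the difference was 1.52 (edgeR adjusted p = 0.0352). Cxcr6, found on activated T and NK cells, was at 0.149 to 0.339 CPM untreated and at 0.531 to 0.599 CPM with tamoxifen. Its libraries did not overlap, yet it missed the threshold (log2 1.14, edgeR adjusted p = 0.158).

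Homeostatic and lymphoid ligands were scarce. Of 13 such genes, with Cxcl16 among them, 4 were tested and 6 had no count in any library, namely Ccl19, Ccl21a, Ccl21b, Ccl21c, Ccl27b and Ccl28. Ccl21a, Ccl21b and Ccl21c are close copies, as are Ccl27a and Ccl27b, and reads that fit several copies could have been dropped in counting. Cxcl13, like Ccl19 and Ccl21a a textbook target of the noncanonical NF-kB pathway in lymphoid stroma, had 3 counts in tamoxifen replicate 2 and none elsewhere. Cxcl12, the retention signal of the marrow and a further target of that pathway, was tested at 0.596, 0.720 and 0.519 CPM untreated and 0.999, 0.232 and 1.37 CPM with tamoxifen. Its tamoxifen libraries lay on both sides of the untreated ones (log2 0.50, SE 0.61, edgeR adjusted p = 0.625). Ccl25, the ligand of CCR9, was lower in each tamoxifen library (1.58 to 2.497 CPM) than in each untreated library (2.58 to 3.13 CPM) and missed the threshold (log2 -0.52, edgeR adjusted p = 0.278). Ccl27a, a skin-associated ligand of CCR10, spanned 1.04 to 1.86 CPM untreated and 0.899 to 1.995 CPM with tamoxifen (edgeR adjusted p = 0.844).

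Neutrophil-attracting CXC ligands, which act through CXCR2, gave no call. Cxcl2 (MIP-2) was the sole tested gene of 5, at 2.73, 2.08 and 0.334 CPM untreated and at 1.90, 0.232 and 0.310 CPM with tamoxifen. Untreated replicate 3 fell among the low tamoxifen libraries and tamoxifen replicate 1 among the high untreated ones (log2 -1.07, SE 0.93, edgeR adjusted p = 0.479). Cxcl1, Cxcl3 and Cxcl15 had 4, 7 and 1 counts over all 6 libraries and Cxcl5 none. Cxcr2 itself was at 12.3, 14.4 and 13.9 CPM untreated and at 14.6, 10.2 and 8.31 CPM with tamoxifen. Tamoxifen replicate 1 overlapped the untreated libraries (log2 -0.30, edgeR adjusted p = 0.405), and without it Cxcr2 passed as lower (log2 -0.55, edgeR adjusted p = 0.0483). Cxcr1 had no count in any library.

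**Figure D2:**
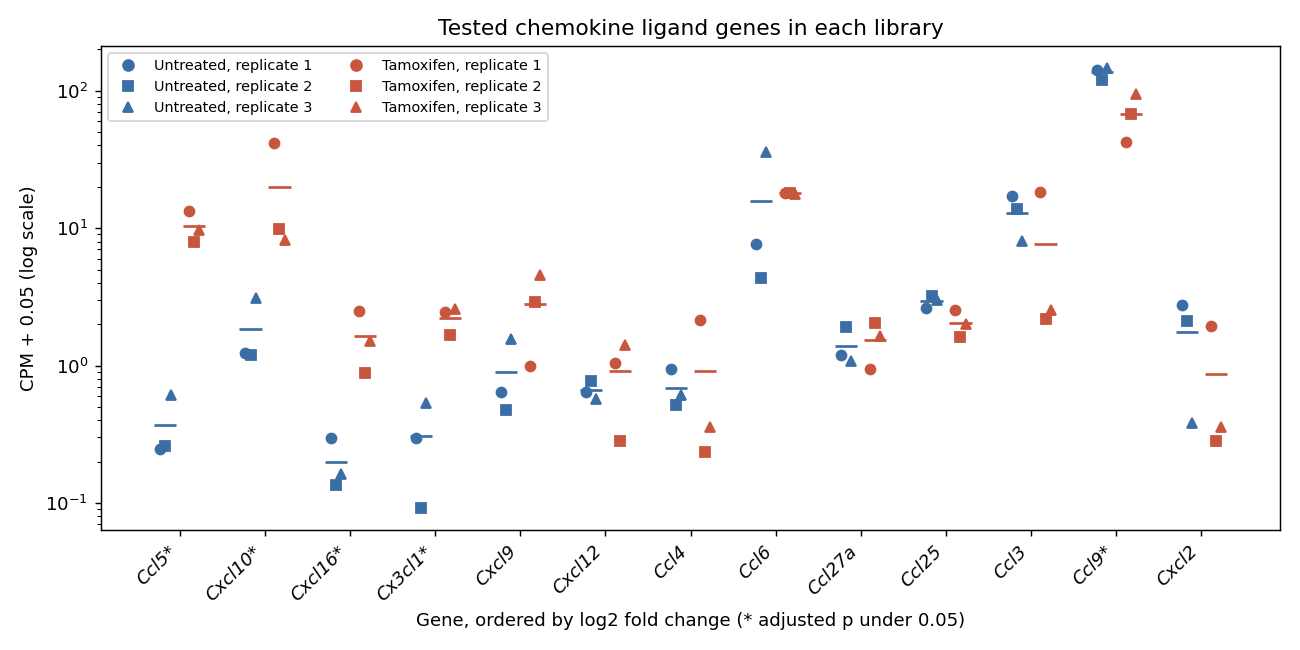
CPM of the 13 tested ligand genes in each library (y axis, CPM + 0.05 on a log scale), untreated in blue and tamoxifen in red, with a symbol for each replicate number and a line at each group mean. Ccl5, Cxcl10, Cxcl16 and Cx3cl1 have no overlap between groups and are higher with tamoxifen. Ccl9 is lower, and Ccl3, Ccl4 and Cxcl10 show tamoxifen replicate 1 above the others of its group.

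Of the CC receptors, 4 of 6 tested rose, Ccr10, Ccr3, Ccr9 and Ccr7, and Ccr1 fell, where 8.96% of all genes tested rose and 8.24% fell. Ccr10, Ccr3 and Ccr7 had entered the test through their tamoxifen libraries. Ccr10, the receptor of skin-homing T cells and IgA plasma cells, had 0, 1 and 3 counts in the untreated libraries and 298, 197 and 224 counts with tamoxifen. That is 0 to 0.111 CPM against 14.9, 9.14 and 9.91 CPM (fitted log2 7.52, SE 0.55, edgeR adjusted p = 0.000124). The ratio of the summed counts was 198 (exact 95% interval 77.0 to 729, counting error only). In RefSeq, Ccr10 overlaps Cntnap1, a gene of axon contacts that rose as well, from 63, 139 and 70 counts to 4944, 4346 and 3833 counts (log2 5.73, edgeR adjusted p = 3.29e-05). Their GENCODE M21 exons share no base, and the part of Cntnap1 transcription in the Ccr10 counts was not tested. Ccr10 passed under every alternative run.

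Ccr3, the eotaxin receptor of eosinophils and basophils, was at 0.199, 0.0847 and 0 CPM untreated and at 14.6, 2.13 and 2.87 CPM with tamoxifen. Every tamoxifen library was above every untreated one, and tamoxifen replicate 1 was 5.82 times the mean of the other 2 tamoxifen libraries. The log2 fold change was 6.14 (SE 1.10, edgeR adjusted p = 0.00774), and 4.77 without that library, where it passed. The eosinophil marker list (4 of its 5 genes are in the files, Ccr3 among them) was also high in that library. Without Ccr3 its summed level was 7.50 to 13.1 CPM untreated and 67.9, 6.45 and 4.91 CPM with tamoxifen. Prg2, an eosinophil granule gene, made up most of the sum (66.5 CPM in tamoxifen replicate 1). Epx, the eosinophil peroxidase gene, was too low to test. It was at 0.0994, 0.339 and 0.445 CPM untreated and at 0.150, 0 and 0 CPM with tamoxifen. Il5ra, the receptor gene for interleukin-5, was at 0.944, 1.44 and 1.41 CPM untreated and at 1.30, 2.09 and 1.59 CPM with tamoxifen and did not pass (log2 0.39, edgeR adjusted p = 0.513). Of the basophil and mast cell list (7 of 7 genes in the files, 5 tested), Gata2 rose (log2 1.12, edgeR adjusted p = 0.000123) and none fell. The basophil gene Mcpt8 was at 15.4 to 19.1 CPM untreated and 13.2 to 18.2 CPM with tamoxifen (edgeR adjusted p = 0.912). The part of eosinophils or basophils in the Ccr3 level was not tested.

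Ccr9, which guides thymocytes and gut-homing lymphocytes and marks plasmacytoid dendritic cells, was at 1.14, 0.762 and 0.742 CPM untreated and at 4.89, 2.83 and 5.04 CPM with tamoxifen. The groups were separate (log2 2.27, SE 0.37, edgeR adjusted p = 0.00499), and the call held under every alternative run. A gene that shares 0.394% of its exon bases on the opposite strand, the amino acid transporter gene Slc6a20a, was at 0 CPM in all untreated libraries and at 1.70, 3.25 and 2.57 CPM with tamoxifen. Its part in the Ccr9 counts was not tested. Ccr7, which takes T cells and mature dendritic cells to lymph nodes and is a target of NF-kB, was at 0.298, 1.23 and 0.742 CPM untreated and at 4.60, 1.67 and 2.96 CPM with tamoxifen. The libraries did not overlap (log2 2.002, SE 0.56, edgeR adjusted p = 0.0450). Leaving out any library other than tamoxifen replicate 2 ended the call (edgeR adjusted p 0.0517 to 0.132), as did limma voom (adjusted p = 0.0502) and the replicate number as a block in edgeR (adjusted p = 0.0993). Both known ligands of CCR7, Ccl19 and the Ccl21 genes, were without counts.

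Ccr1 and Ccr2, inflammatory receptors of monocytes and neutrophils, were lower with tamoxifen by similar amounts. Ccr1 was at 38.3, 37.1 and 43.9 CPM untreated and at 25.1, 24.4 and 31.3 CPM with tamoxifen, with no overlap (log2 -0.56, SE 0.13, edgeR adjusted p = 0.0196). Its call was lost without untreated replicate 1 or 3 or tamoxifen replicate 2 (edgeR adjusted p 0.0645 to 0.0744). Ccr2 was at 30.9, 31.3 and 40.9 CPM untreated and at 20.03, 20.8 and 28.1 CPM with tamoxifen, also with no overlap. Its difference of -0.58 (SE 0.17) just missed the threshold in edgeR (adjusted p = 0.0518) and passed with DESeq2 (0.0155), limma voom (0.0495) and the replicate number as a block (0.0167). The monocyte markers (8 of 8 in the files, all tested) summed without Ccr2 to 1119 to 1759 CPM untreated and 1182 to 2006 CPM with tamoxifen. Of these Ly6c2 (log2 -1.87, edgeR adjusted p = 0.0160) and Cd14 (log2 -1.47, edgeR adjusted p = 0.0173) fell and Csf1r rose (log2 0.97, edgeR adjusted p = 0.0162). Large parts of the sum moved apart. Ly6c2 was at 410 to 854 CPM untreated and 95.9 to 252 CPM with tamoxifen. F13a1, the largest part with tamoxifen, was at 411 to 540 and 492 to 1182 CPM and did not pass (log2 0.88, edgeR adjusted p = 0.0667). The part of monocytes in the levels of Ccr1 and Ccr2 was not tested. Ccr4, Ccr6, Ccr8 and Ccr1l1 had 1 to 9 counts over all 6 libraries.

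Cxcr4 took the largest share of receptor reads in every library, 70.8% to 74.9% of all receptor CPM untreated and 59.4% to 66.4% with tamoxifen. It was at 287, 279 and 344 CPM untreated and at 229, 263 and 235 CPM with tamoxifen. Each tamoxifen library was below each untreated library, and the difference of -0.32 (SE 0.11) did not pass in edgeR (adjusted p = 0.0723) but passed with DESeq2 (log2 -0.32, adjusted p = 0.0305). Summed over the 23 receptors the level was 383, 380 and 486 CPM untreated and 367, 396 and 396 CPM with tamoxifen, which overlap. Xcr1, a receptor of cross-presenting dendritic cells, was at 0.557 to 0.847 CPM untreated and at 1.19 to 1.35 CPM with tamoxifen and did not pass (log2 0.79, edgeR adjusted p = 0.184). Cxcr5, the B cell follicle receptor, overlapped between groups (0.0371 to 0.635 and 0.557 to 0.749 CPM, edgeR adjusted p = 0.498).

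The atypical receptors were led by Ackr1 (Duffy antigen), which binds many CC and CXC chemokines on red cells and venules. It was not counted once in 3 untreated libraries and had 325, 473 and 445 counts with tamoxifen, or 16.2, 21.9 and 19.7 CPM. Against a floor of 3 counts over the untreated group it was at least 456-fold higher (edgeR adjusted p = 5.56e-05). Its level varied by 1.35 times between the tamoxifen libraries, the smallest spread in that group among the genes that rose. Ackr1 shares 21.5% of its exon bases with Cadm3 on the same strand in GENCODE M21. Cadm3 had 2, 2 and 0 counts untreated and 1966, 3494 and 3542 counts with tamoxifen, and both genes had their lowest tamoxifen value in replicate 1. The part of Cadm3 transcripts in the Ackr1 counts was not tested. Markers of the cells that usually carry Ackr1 are given beside it. Of the 9 erythroid markers listed, 4 globin genes had no count in any library, and without Ackr1 the list summed to 0.720 to 1.15 CPM untreated and 0.708 to 1.30 CPM with tamoxifen. The endothelial list (8 of 8 genes in the files) summed without Ackr1 to 136 to 164 CPM untreated and 59.2 to 93.3 CPM with tamoxifen. Most of that sum was Pecam1, an adhesion gene of endothelium and leukocytes, which fell (125 to 162 CPM untreated, 53.0 to 82.2 CPM with tamoxifen, log2 -1.09, edgeR adjusted p = 0.00391). Cdh5 (0 to 0.0371 and 0.133 to 1.05 CPM), Kdr (0 to 0.149 and 0.265 to 0.464 CPM) and Plvap (0.762 to 1.39 and 1.77 to 4.40 CPM) were higher in every tamoxifen library, of which Plvap was tested and did not pass (edgeR adjusted p = 0.0809). The part of either cell type in the Ackr1 level was not tested.

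The other atypical receptors were too low to test. Ackr2, a scavenger of inflammatory CC chemokines, had 7, 3 and 4 counts untreated and 0, 8 and 31 with tamoxifen. Ackr3, the second receptor of CXCL12, had no count untreated and 13, 1 and 0 with tamoxifen, nearly all in tamoxifen replicate 1. Ackr4, which takes up CCL19, CCL21 and CCL25, had 3, 3 and 0 counts untreated and 0, 6 and 7 with tamoxifen.

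**Figure D3:**
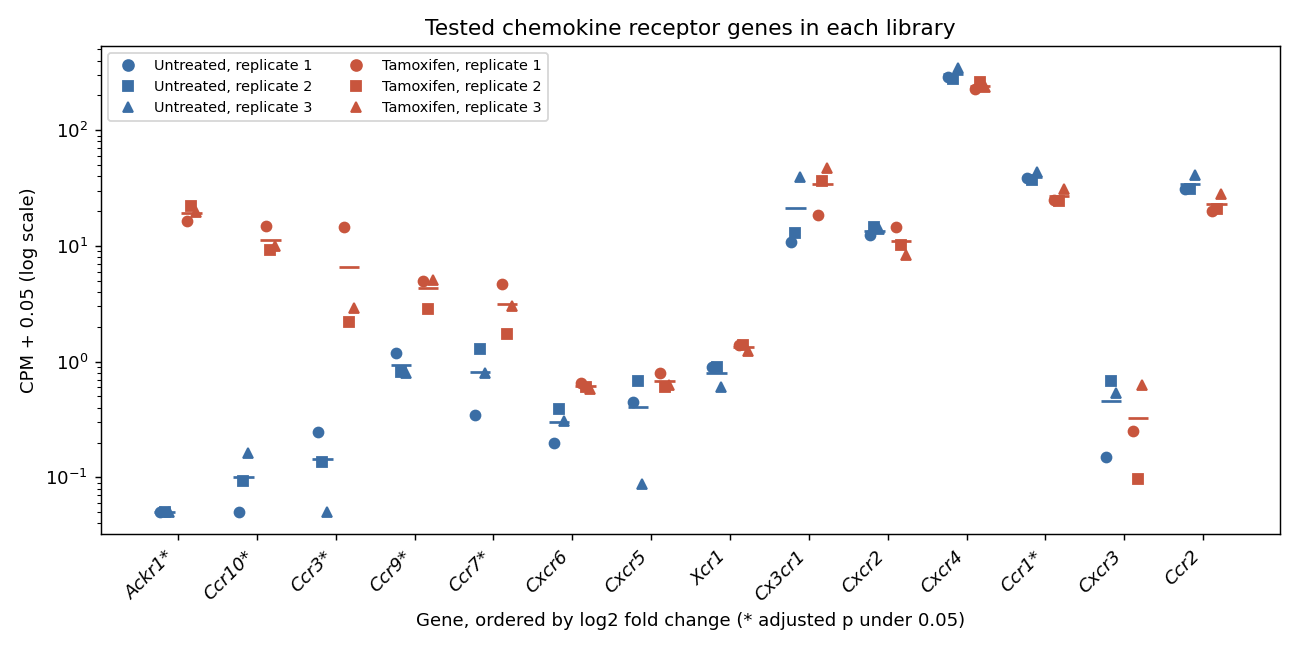
CPM of the 14 tested receptor genes in each library (y axis, CPM + 0.05 on a log scale), untreated in blue and tamoxifen in red, with a symbol for each replicate number and a line at each group mean. Ackr1, Ccr10 and Ccr3 go from at most 0.199 CPM in untreated libraries to at least 2.13 CPM with tamoxifen, while Cxcr4, Ccr1 and Ccr2 are slightly lower in every tamoxifen library.

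Among the 35 genes not tested, 10 had more than 10 counts over the 6 libraries, none more than 53. Besides those given above they include Ccl24, an eotaxin, with 9, 12 and 19 counts untreated and 0, 0 and 2 with tamoxifen, a ratio of 0.0551 (exact 95% interval 0.00645 to 0.212, counting error only). Cxcl14, a ligand made by epithelia and macrophages, had 5, 0 and 30 counts untreated and 0, 1 and 0 with tamoxifen, a ratio of 0.0315 (exact 95% interval 0.000775 to 0.187, counting error only), most of it from untreated replicate 3. Ccl2 (MCP-1), the main ligand of CCR2, had 2, 2 and 13 counts untreated and 4, 4 and 2 with tamoxifen. The inflammatory ligand genes Ccl1, Ccl11, Ccl20 and Ccl26 had no count, and Ccl7, Ccl8, Ccl12, Cxcl17 and Xcl1 had 2 to 9 counts over all libraries. Ccl22, a ligand of CCR4, had 0, 0 and 2 counts untreated and 9, 1 and 5 with tamoxifen. A gene with 0 counts could still be present at up to 3 counts, which is 0.111 to 0.150 CPM depending on the library.

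Chemokine genes lie in clusters, and neighbours did not all move alike. On chromosome 11 the order in RefSeq is Ccl5, Ccl9, Ccl6, Ccl3 and Ccl4, in which Ccl5 rose, Ccl9 fell and the others did not pass. Before them in that order Ccl2, Ccl7, Ccl11, Ccl12, Ccl8 and Ccl1 were all too low to test. On chromosome 9, Ccr1 fell and Ccr3 rose with Ccr1l1 between them, and Ccr2, next after Ccr3, was at a log2 difference of -0.58. Ccr9, Cxcr6 and Xcr1, before Ccr1, had log2 differences of 2.27, 1.14 and 0.79, of which that of Ccr9 passed.

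**Figure D4:**
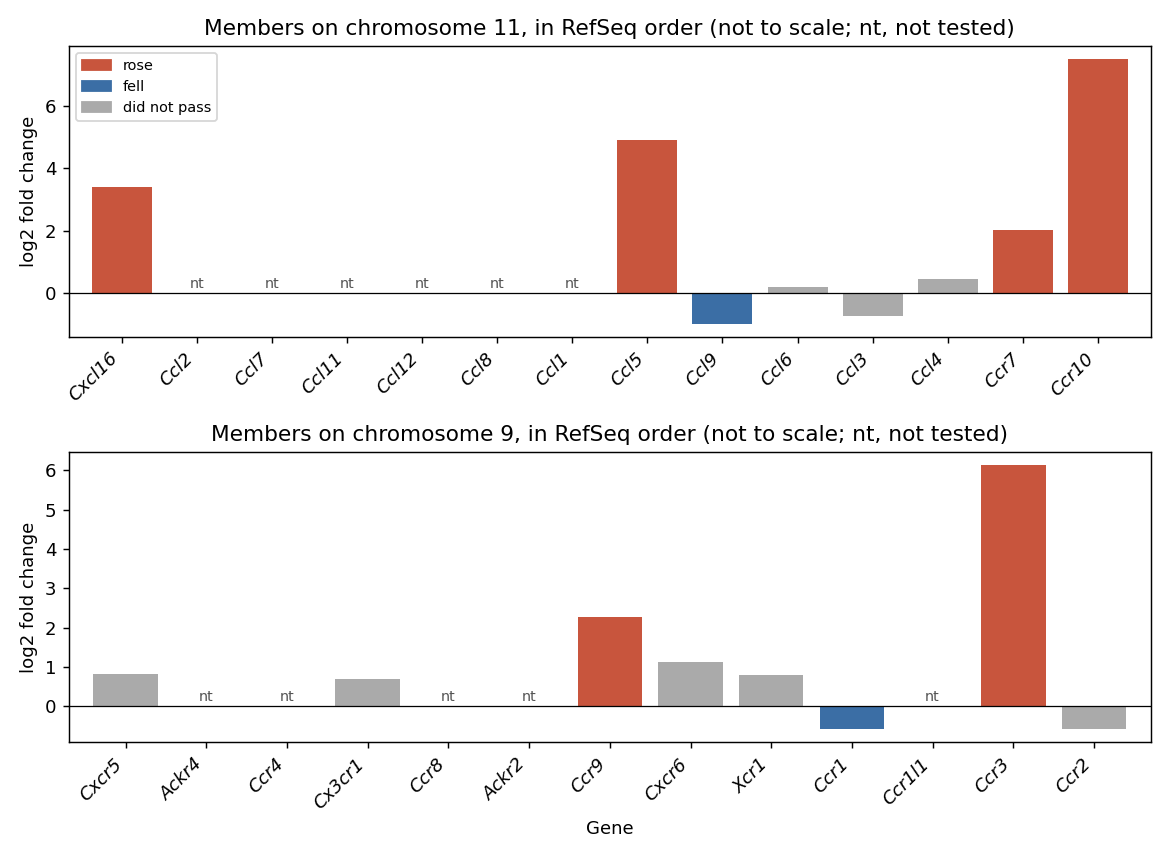
log2 fold change (y axis) of the genes on chromosomes 11 and 9, from the first to the last tested gene in RefSeq order along the x axis, not to scale, with genes too low to test marked nt. Ccl5 (4.93) stands beside Ccl9 (-0.996), and Ccr3 (6.14) between Ccr1 (-0.56) and Ccr2 (-0.58).

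Markers of other cells moved with several of these genes. Of 16 tissue macrophage markers sought, 15 are in the files, all with counts. Of 13 tested 9 rose and none fell, where 8.96% of all genes tested rose and 8.24% fell. The summed level of the macrophage markers was 289 to 335 CPM untreated and 1775, 771 and 830 CPM in tamoxifen replicates 1 to 3. In the tamoxifen libraries the largest part of that sum was Vcam1, at 930, 456 and 457 CPM (75.5 to 82.6 CPM untreated). Emr1 came next, at 205, 142 and 147 CPM (69.6 to 92.3 CPM untreated). Cd68, of the same list, was lower in every tamoxifen library (97.4 to 105 CPM, against 113 to 121 CPM untreated). It did not pass (log2 -0.21, edgeR adjusted p = 0.113), nor did Marco (log2 -0.01, edgeR adjusted p = 0.996). C1qa, a complement gene of tissue macrophages, was at 3.63, 0.339 and 2.004 CPM untreated and at 92.5, 8.03 and 14.3 CPM with tamoxifen. Ccl5, Cxcl10, Cxcl16, Ccr3, Ccr7 and Ccr10 had their highest value in the same library, tamoxifen replicate 1. Of the other genes that rose, Ackr1 had its lowest tamoxifen value there, and Cx3cl1 and Ccr9 were highest in tamoxifen replicate 3. The mature neutrophil markers (10 of 11 in the files, none of which passed) summed without Cxcr2 to 305, 30.03 and 2169 CPM untreated and to 211, 662 and 650 CPM with tamoxifen, with Ltf at 0 in untreated replicate 2. Ccl6 was lowest in untreated replicate 2 and highest in untreated replicate 3, as this sum was. With tamoxifen Ccl6 was level, at 18.0, 17.9 and 17.8 CPM, while the neutrophil sum was lowest in replicate 1. Lcn2, of the neutrophil list, was highest in tamoxifen replicate 2 (176 CPM). Cxcl2 was highest in untreated replicate 1 and Cxcr2 in tamoxifen replicate 1. The part of such cells in the levels of these genes was not tested. For the lymphoid cells that CCR7, CCR9, CCR10 and CXCR6 usually mark, the T cell gene Cd3e was at 1.34 to 2.03 CPM untreated and 2.74 to 6.04 CPM with tamoxifen, which did not pass (edgeR adjusted p = 0.0569). The B cell and plasma cell markers (9 of 10 in the files, 2 tested, none called) summed to 41.3 to 46.3 CPM untreated and 27.9 to 56.5 CPM with tamoxifen. Nearly all of that was Cd79b, and Pax5, a defining gene of B cells, had no count. The NK cell markers (7 of 7 in the files, 3 tested) summed to 52.3 to 65.5 CPM untreated and 11.4 to 23.8 CPM with tamoxifen. Of these Nkg7 (log2 -2.04, edgeR adjusted p = 0.00229) and Klrk1 (log2 -2.53, edgeR adjusted p = 0.0272) fell, and Ncr1, a defining gene of NK cells, had no count. Most of the NK cell sum was Nkg7 in every library (46.6 to 55.4 CPM untreated, 9.19 to 19.4 CPM with tamoxifen). Gzma, the remaining tested gene of that list, moved the other way without passing (log2 1.32, edgeR adjusted p = 0.0741). It was at 0.466 to 0.631 CPM untreated and 1.02 to 2.098 CPM with tamoxifen. The summed T cell markers (8 of 9 in the files, 7 tested, 1 rose and 1 fell) were at 23.2 to 29.4 CPM untreated and 30.3 to 82.7 CPM with tamoxifen. Lck rose (log2 1.44, edgeR adjusted p = 0.0175) and was the largest part of that sum in every library. Cd28 fell (log2 -2.46, edgeR adjusted p = 0.00643). The dendritic cell markers (10 of 10 in the files, 6 tested) summed without Ccr9 and Xcr1 to 143 to 165 CPM untreated and 124 to 149 CPM with tamoxifen. Flt3 fell (log2 -1.20, edgeR adjusted p = 0.00153), and Ccr9 alone of that list rose. Zbtb46, Itgax and Bst2 were higher in every tamoxifen library without passing.

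**Figure D5:**
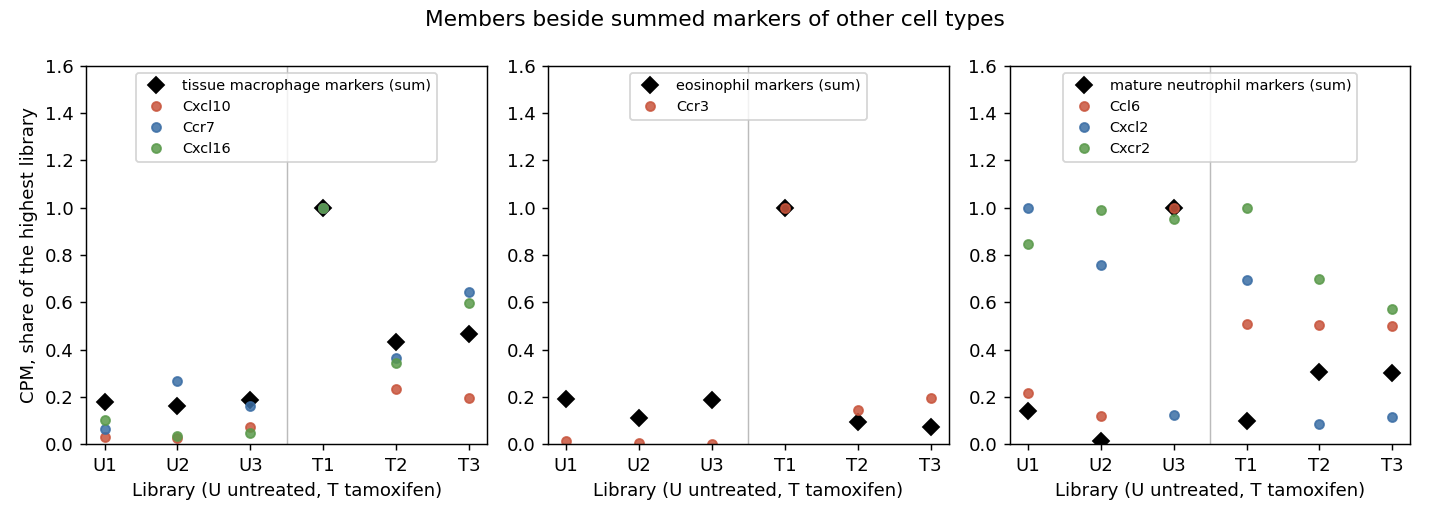
CPM in each library as a share of the highest library (y axis), for summed marker lists without chemokine genes (black) and for 7 chemokine genes picked after their values were seen. U1 to U3 are the untreated and T1 to T3 the tamoxifen libraries. Vcam1 is the largest part of the macrophage sum in T1 to T3. The macrophage sum and Cxcl10, Ccr7 and Cxcl16 peak in T1, as do the eosinophil sum, most of which is Prg2, and Ccr3. The neutrophil sum and Ccl6 peak in U3. Cxcl2 and Cxcr2, drawn beside the neutrophil markers, peak in U1 and T1.

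Genes that act around the receptors changed in part. Of the chemokine genes outside the naming rule, Ccrl2, an atypical receptor that presents chemerin and is induced by inflammatory signals, rose from 2.14, 3.60 and 2.93 CPM to 44.3, 14.9 and 14.2 CPM (log2 3.07, SE 0.48, edgeR adjusted p = 0.00439). As for Cxcl10 and Ccr3, tamoxifen replicate 1 was the highest. Cd74, the class II invariant chain and a receptor of the chemokine-like MIF, rose from 1.64, 0.424 and 6.23 CPM to 757, 616 and 937 CPM (log2 8.07, SE 0.73, edgeR adjusted p = 0.000315). Mif itself was at 230.3, 219.8 and 189.9 CPM untreated and at 358, 239 and 211 CPM with tamoxifen, overlapped and did not pass (log2 0.34, edgeR adjusted p = 0.265). Cklf, a chemokine-like factor, was at 12.7, 9.62 and 15.7 CPM and at 9.59, 13.2 and 13.1 CPM (log2 -0.08, edgeR adjusted p = 0.843). The chemerin receptor gene Cmklr1 was at 0.894, 0.424 and 2.63 CPM and at 2.35, 1.35 and 0.796 CPM (log2 0.16, edgeR adjusted p = 0.898). The groups overlapped for both. The platelet chemokine genes Pf4 and Ppbp had 3 and 5 counts untreated and 5 each with tamoxifen.

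Of 17 desensitisation genes in the files, 15 were tested, and 4 rose and none fell (26.7% rising, against 8.96% of all genes). These genes switch receptors off or trim their ligands. Dpp4, a peptidase that cuts CXCL12, CXCL10 and CCL5, rose from 9.29, 10.3 and 10.8 CPM to 65.3, 27.2 and 44.6 CPM (log2 2.17, SE 0.29, edgeR adjusted p = 0.00190). Adrbk2, the receptor kinase GRK3, rose from 77.3, 73.7 and 105 CPM to 138, 166 and 163 CPM (log2 0.87, edgeR adjusted p = 0.00648). Rgs1, which shortens G protein signals, went from 1.14, 0.593 and 0.853 CPM to 27.02, 5.01 and 5.88 CPM (log2 3.87, edgeR adjusted p = 0.00900), again highest in tamoxifen replicate 1. Rgs18, its relative in platelets and myeloid cells, rose from 71.2, 60.8 and 68.1 CPM to 89.9, 125 and 142 CPM (log2 0.84, edgeR adjusted p = 0.0112). The arrestin genes Arrb1 (log2 0.31) and Arrb2 (log2 0.30) did not pass (edgeR adjusted p = 0.262 and 0.252).

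Of 48 signalling genes, 46 were tested, 7 rose and 5 fell, 15.2% and 10.9%, with a median log2 of 0.10. Over all genes tested, 8.96% rose and 8.24% fell. Prkcd, a protein kinase C gene, rose from 356, 348 and 390 CPM to 529, 630 and 581 CPM (log2 0.67, SE 0.09, edgeR adjusted p = 0.00235). Tiam1, an activator of the small GTPase RAC1, fell from 154, 191 and 160 CPM to 69.6, 99.4 and 102 CPM (log2 -0.90, SE 0.16, edgeR adjusted p = 0.00750). Rap1a, a GTPase gene of integrin activation, rose from 112, 119 and 122 CPM to 163, 168 and 226 CPM (log2 0.66). Prkcb rose from 204, 197 and 217 CPM to 263, 306 and 273 CPM (log2 0.45, edgeR adjusted p = 0.0122 for both genes). The G protein gene Gnai2, through which most chemokine receptors signal, did not pass (log2 0.12, edgeR adjusted p = 0.375), nor did Pik3cg (log2 0.25, edgeR adjusted p = 0.392). Dock2 (log2 0.27, edgeR adjusted p = 0.0886) and Rac2 (log2 0.26, edgeR adjusted p = 0.0892), which move leukocytes towards chemokines, were higher in each tamoxifen library without passing.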

How the data were processed

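Gene counts of 6 mouse RNA libraries, grouped by sample title, were taken as the authors deposited them, as whole-number counts per gene symbol without normalization. The submitters' processing notes name mm9, FastQC, TopHat2 2.1.0, featureCounts and DESeq2. Annotation, strand setting and the handling of reads with several positions are unknown from the sources used here, so overlapping or near-identical genes may share or lose counts. Genes passing filterByExpr (minimum 10 counts, 12729 of 24015) were scaled by TMM, which also scales the CPM printed. They were compared with edgeR 4.0.16 in R 4.3.3 by two-sided quasi-likelihood F tests on group alone, and p-values were Benjamini-Hochberg adjusted across them (threshold 0.05). Each SE was obtained as |log2 fold change| / √F. The scripts were tested on simulated data.

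The untreated libraries held 20410001, 23639689 and 26773176 counts, and the tamoxifen libraries 19999071, 21541142 and 22454753. Intervals and floors cover counting error only. Libraries of a group differed beyond sampling noise (chi-square per degree of freedom 11.2 to 46.95).

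The members and lists were chosen with earlier results of these data known. Library values are given for tested members that passed or had a mean of at least 5 CPM in a group, for members with no counts in one group and at least 30 in the other, for up to 4 passing genes of each pathway list by smallest p, and for tested chemokine genes outside the naming rule. Other genes named were chosen after their values were seen. The alternatives were other scaling factors (RLE, upper quartile, none), other filters (none, or CPM over 1 in 3 libraries), DESeq2 1.42.0, voom of limma 3.58.1, a replicate block, glmTreat at 1.5-fold, and each library left out. A planned protein comparison was not made, and the values of 1 member too low to test are not reported here.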

Additional observations from a re-analysis of the deposited data

How the results depend on the processing

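Of the 11 chemokine genes that passed, 6 passed under every alternative run that could test them (Ccl5, Cxcl16, Ackr1, Ccr10, Ccr3 and Ccr9; Cxcl16 was too low for the stricter filter), and 5 lost the call under at least 1 (Ccl9, Cxcl10, Cx3cl1, Ccr1 and Ccr7). glmTreat ended those of Ccl9, Ccr1 and Ccr7. Of the 16 that did not pass, 7 passed under at least 1. With no filter, 2 ligands and 2 receptors fell instead of 1 each. The number of receptors that fell was 3 with DESeq2, 2 with limma voom and 2 with the replicate block. With glmTreat at 1.5-fold, 420 of all genes rose and 227 fell, no ligand and no receptor fell (0 each), 0 signalling genes rose and 0 fell, and 2 desensitisation genes rose. DESeq2 gave 11 rising signalling genes in place of 7. Leaving out each library in turn gave 586 to 1632 rising and 443 to 1636 falling genes. Over the same fits, 2 to 5 ligands rose and 0 to 3 fell, 4 to 5 receptors rose and 0 to 2 fell, 1 to 12 signalling genes rose and 2 to 6 fell, and 3 to 6 desensitisation genes rose. The lowest counts of rising ligands and signalling genes came without untreated replicate 1, and the highest counts of falling genes and ligands without tamoxifen replicate 1. The changes of sign were all in genes that did not pass. Ccl4 was at -0.28 with limma voom, -0.12 with the replicate block and -1.33 without tamoxifen replicate 1, and ranged from -1.33 to 0.90 as each library was left out. Over the same fits Ccl27a ranged from -0.11 to 0.45 (negative without untreated replicate 3 or tamoxifen replicate 2), Ccl6 from -0.28 to 1.59 (negative without untreated replicate 1 or 2), Cklf from -0.25 to 0.11 (positive without untreated replicate 3 or tamoxifen replicate 1) and Cmklr1 from -0.32 to 1.19 (negative without untreated replicate 1 or 2 or tamoxifen replicate 1). The cause was not tested. Same-numbered libraries of the groups had correlations of deviations of 0.14, -0.15 and 0.11, and not every sample correlated best with its own number. The labels do not say whether the numbers pair the libraries, and with 3 libraries per group these values cannot decide it. Genes under about 0.15 CPM are within the limit that a count of 0 allows at this depth.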
